A study of Mus musculus with 30 samples.

Results

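Genes for voltage-gated sodium, calcium and potassium channels, for the other potassium channels, for HCN channels and for their auxiliary subunits were followed across mouse embryonic forebrain and cells cultured from it. The members were chosen by symbol, as the rows whose names begin with Kcn, Scn and a digit, Cacn, or Hcn and a digit. A row also had to reach 1 TPM, an abundance scaled for transcript length and library size, in at least 1 of 13 RNA columns. Of 143 such symbols among 53974 genes, 110 met the limit, and 83 of these reached 1 TPM in at least 4 of the 12 cell culture libraries and were tested. Just inside the limit were Kcna7, Kcnj6 and Kcng2, with highest values of 1.04, 1.06 and 1.08 TPM. Just outside it were Kcnmb4os1, Kcna10 and Kcnk6, with 0.895, 0.882 and 0.878 TPM.

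The cells were neural stem and progenitor cells (NSPCs), taken from the forebrain of C57BL/6 embryos at stage E13.5 of gestation and grown for a few passages in medium with the growth factors EGF and FGF. They received MS-275 at 1 µM, which inhibits the class I histone deacetylases, or 10 mM crotonate, a short-chain fatty acid from which cells make the donor for histone crotonylation, or the solvent DMSO as the control, for 24 h. RNA was sequenced from 4 libraries of each group, which the study calls biological replicates, and from 1 untreated forebrain of the same stage. Chromatin was precipitated with antibodies to crotonylated lysine (Kcr) and acetylated lysine (Kac) in 1 NSPC library per antibody and treatment, and with antibodies to H3K9cr and H3K9ac in 1 forebrain library each. Forebrain explants of the ICR strain at E13.5, 3 libraries with crotonate and 3 without, are known here only through the authors' deposited table of the comparison. The solvent given with crotonate is not stated, so the DMSO of the control may or may not be shared.

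Sodium and calcium channels open when the membrane is depolarized and carry the upstroke of the action potential and the calcium that triggers transmitter release, while potassium channels bring the membrane back to rest. Each pore is built from alpha subunits, and auxiliary beta, gamma, alpha2delta or calcium-sensing subunits set how many channels reach the surface and how they gate. Neurons hold the widest range of these genes, and dividing progenitors and glia rely more on inward rectifiers and leak channels that set a resting potential.

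TPM columns summed to between 998182 and 999495, and TPM keeps no read count, so sequencing depth is unknown. In these bulk samples fewer cells of a type and less RNA per cell cannot be told apart. Some cell type markers were called with the treatments, and their part in the channel results was not tested. For comparison, 37.4% of all genes tested were higher and 27.6% lower with MS-275, and 32.3% and 15.9% with crotonate. Of 11 tested neuron markers, 8 rose and 0 fell with MS-275, and 9 rose and 1 fell with crotonate. Their summed level was 746 to 797 TPM with MS-275, 549 to 604 with crotonate and 603 to 681 in controls, against 3050 TPM in the forebrain. Most of the NSPC sum was Gap43, the 1 that fell with crotonate, at 651 to 699 TPM with MS-275, 477 to 530 with crotonate and 573 to 646 in controls. The other 11 listed neuron markers summed to 82.9 to 97.0 TPM with MS-275, 69.2 to 73.5 with crotonate and 28.0 to 35.1 in controls, against 2841 TPM in the forebrain. Of 8 oligodendrocyte-lineage markers, 5 rose with MS-275 and 3 with crotonate, and their sum was 2945 to 3223, 1911 to 2167 and 1741 to 1943 TPM in MS-275, crotonate and control libraries. Of 9 stem-cell and radial glia markers, 3 rose and 3 fell with MS-275, and 1 rose and 1 fell with crotonate. Their sum was 13539 to 14213, 8978 to 9878 and 9611 to 10145 TPM in MS-275, crotonate and control libraries. Of 5 astrocyte markers, 3 rose and 0 fell with MS-275, and 3 rose and 1 fell with crotonate, with sums of 155 to 201, 109 to 135 and 98.8 to 143 TPM in the same order. Endothelial (1 tested), mural (2) and muscle (2) markers had 1, 1 and 2 that rose with MS-275 and the same numbers with crotonate, at summed levels of at most 16 TPM. Microglial and erythroid markers had no tested gene, and Hbb-bs, an adult globin, was listed at 0 in all 12 NSPC libraries.

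The forebrain library differed from the control NSPCs for most channel genes, at shares not far from those of all genes. The forebrain library lay above all 4 control libraries for 65 of the 110 members (59.1%, beside 51.6% of the 18336 genes reaching 1 TPM) and below all 4 for 33 members (30%, beside 28.3%). Of the 110 members, 11 met the 1 TPM limit through the forebrain alone, so their place above the controls followed from the rule. The same limit was set for the share of all genes. With 1 forebrain library this ordering has no replicate check on the forebrain side. The members summed to 1330 TPM in forebrain, against 1070 TPM over the control means. Calcium channel genes led in the forebrain, where Cacnb3, a beta subunit, had 125 TPM and Cacng7, an auxiliary subunit of AMPA-type glutamate receptors as well, had 113 TPM. Cacnb3 had 19.2, 22.9, 16.9 and 23.4 TPM in the controls, and Cacng7 had 73.2, 75.8, 74.7 and 80.8 TPM. Both forebrain values lay above every control library.

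Wide gaps in favour of forebrain included a sodium channel pore subunit and an auxiliary calcium channel subunit. Scn3a, the sodium channel alpha subunit prominent in embryonic brain, had 42.7 TPM in forebrain and 0.440, 0.501, 0.359 and 1.16 TPM in controls. Cacna2d2, an alpha2delta subunit that carries calcium channels to the surface, had 42.6 TPM in forebrain and 1.91, 4.30, 1.60 and 2.12 TPM in controls. For both genes every control library lay far below the forebrain.

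By family, the forebrain was above all 4 controls for 7 of 8 calcium channel pore genes and 4 of 4 beta subunits. It was also above them for 6 of 7 sodium channel alpha subunits, among them Scn9a, which met the 1 TPM limit through the forebrain alone. For the 13 inward rectifiers, the forebrain was above all 4 controls for 6 and below all 4 for 7. The shares of all genes to set beside these family counts are 51.6% above and 28.3% below.

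Control NSPCs in turn were rich in a small set of potassium channel genes. Kcnc1, a fast delayed rectifier, was the highest member in controls with 118, 122, 119 and 125 TPM, against 10.4 TPM in forebrain. Kcnd3, an A-type channel that inactivates quickly, had 22.2 TPM in forebrain and 84.9, 82.5, 87.8 and 84.1 TPM in controls, and Kcna2, a Shaker-type delayed rectifier, had 1.11 TPM in forebrain and 78.9, 78, 79.1 and 80.02 TPM in controls. The 4 control values of each of these genes lay within a narrow span, and the forebrain was lower in each case.

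The same held for an inward rectifier and an auxiliary subunit. Kcnj16, an inward rectifier that pairs with the glial channel Kcnj10, was listed at 0 in forebrain and had 23.0, 22.5, 21.9 and 18.8 TPM in controls. Cacng5, another AMPA receptor auxiliary subunit that like Kcna2 was picked after its values were seen, had 0.772 TPM in forebrain and 16.7, 16.4, 13.499 and 17.6 TPM in controls. Both genes were thus nearly lacking in the forebrain column while clearly present in the cultures.

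**Figure D1:**
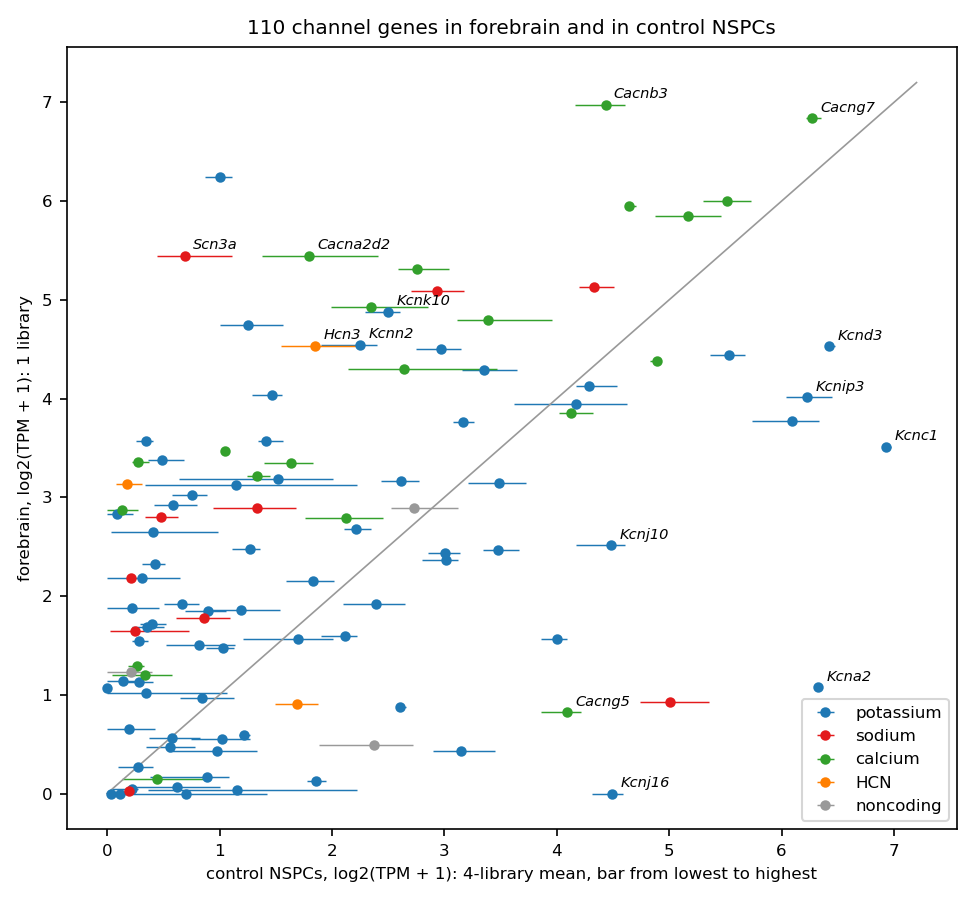
Level of each of the 110 channel genes in 1 forebrain library (vertical axis) against the mean of 4 control NSPC libraries (horizontal axis), both as log2(TPM + 1), with bars from the lowest to the highest control library and the line of equal levels. Scn3a, Cacna2d2 and Cacnb3 lie above the line and Kcnc1, Kcna2, Cacng5 and Kcnj16 below it.

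Both treatments shifted the channel genes mostly upward. With MS-275, 54 of the 83 tested members were higher than in controls and 7 lower (65.1% and 8.43%, beside 37.4% and 27.6% of all 14857 genes tested) by limma with Benjamini-Hochberg adjustment over all genes. With crotonate 49 were higher and 3 lower (59% and 3.61%, beside 32.3% and 15.9%). The median log2 fold change of the tested members was 0.72 with MS-275 and 0.56 with crotonate, beside 0.08 and 0.09 for all genes. Fold changes are on the log2(TPM + 1) scale, which understates the change of genes at low levels. With quantile normalization, which lowers the median of all genes by 0.13 in either comparison, 42 members were higher and 16 lower with MS-275 (beside 29.6% and 34.1% of all genes) and 36 were higher and 12 lower with crotonate (beside 20.8% and 24.8%). The members' median was then 0.31 with MS-275 and 0.27 with crotonate. The 2 comparisons share the 4 control libraries, so they are given side by side and are not independent. Of the 83, 45 were higher with both treatments and 17 were called with neither. Without the 9 tested members that stayed under 1 TPM in every control library, 45 were higher and 7 lower with MS-275 and 40 higher and 3 lower with crotonate. No share of all genes after the same removal is given, so these counts cannot be set against that background.

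**Figure D2:**
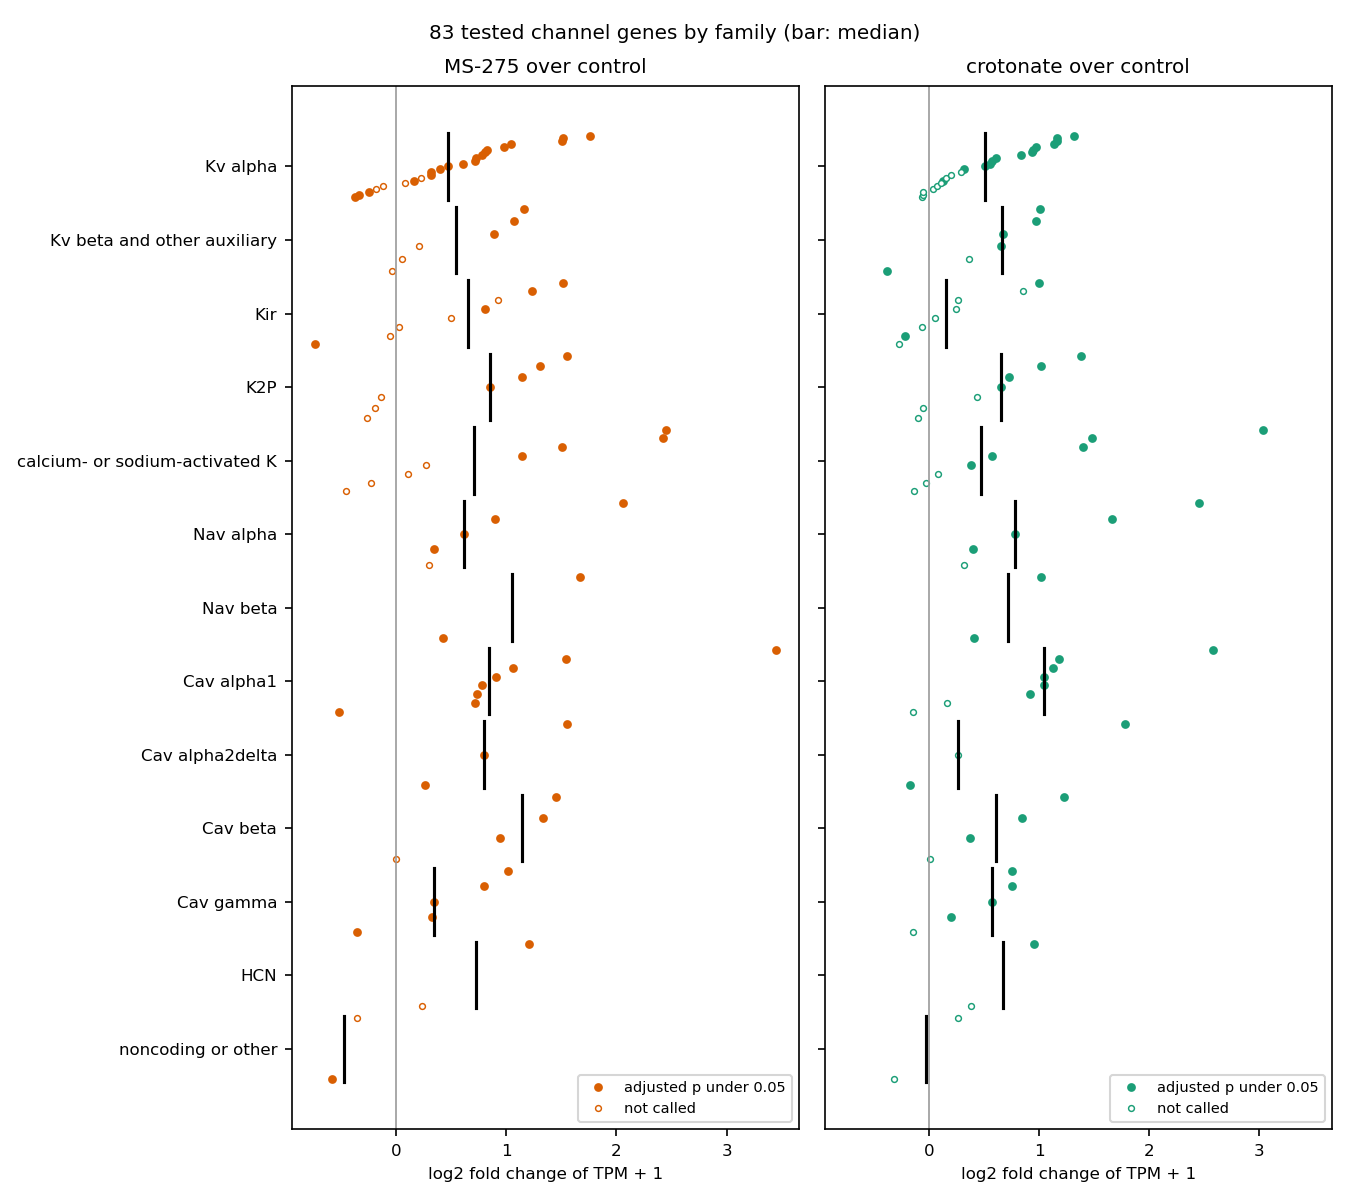
Log2 fold change of TPM + 1 for the 83 tested channel genes, MS-275 over control on the left and crotonate over control on the right, grouped by family, with filled points for an adjusted p under 0.05 by limma, open points for the others and a bar at the family median. The points of most families lie to the right of 0, and the A-type and M-current genes with MS-275 and the inward rectifiers with crotonate include values left of it.

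Among calcium channel pore subunits, 7 of 8 rose with MS-275 and 1 fell, and 6 of 8 rose with crotonate. Cacna1g, a low-threshold T-type channel that opens near rest (chromosome 11, 94408391 to 94474400), had 54.1, 53.5, 49.3 and 55.7 TPM with MS-275, 22.7, 37.8, 26.2 and 29.9 TPM with crotonate, and 4, 2.97, 3.19 and 6.25 TPM in controls. The 3 groups did not overlap, and MS-275 libraries were the highest. The log2 fold change of Cacna1g was 3.45 (SE 0.18, adjusted p 6.7e-09) with MS-275 and 2.58 (SE 0.18, adjusted p 3.1e-07) with crotonate, and MS-275 exceeded crotonate by 0.87 (adjusted p 0.0017). Cacna1h, another T-type gene, had 55.3, 54.3, 61.6 and 58.5 TPM with MS-275, 36.1, 39.0, 38.6 and 41.4 TPM with crotonate, and 28.3, 30.9, 37.7 and 43.1 TPM in controls. It rose with MS-275 by 0.72 (adjusted p 6.4e-05), while its crotonate libraries lay within the control range. Cacna1a, the P/Q-type channel of presynaptic terminals, had 18.3, 19.9, 18.0 and 16.1 TPM with MS-275, 18.6, 23.8, 18.8 and 18.8 TPM with crotonate, and 7.72, 14.6, 7.64 and 8.01 TPM in controls. It rose by 0.91 with MS-275 and 1.04 with crotonate (adjusted p 0.00039 and 0.00026), though control 2 stood apart from the other controls. Cacna1c, the L-type channel of heart and brain, was the exception with 12.1, 11, 9.99 and 11.9 TPM with MS-275, 14.4, 15.8, 15.7 and 13.3 TPM with crotonate, and 16.2, 19.0, 15.2 and 15.6 TPM in controls. It fell by 0.51 with MS-275 (adjusted p 0.00017) and was not called with crotonate.

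Auxiliary calcium channel subunits rose in part. Cacna2d2, the alpha2delta subunit described above (chromosome 9, 107399733 to 107529346), had 9.32, 8.60, 8.73 and 8.69 TPM with MS-275, 12.3, 10.4, 9.80 and 9.64 TPM with crotonate, and 1.91, 4.30, 1.60 and 2.12 TPM in controls. Every treated library lay above every control, and the log2 fold change was 1.56 with MS-275 and 1.78 with crotonate (SE 0.18 in each, adjusted p 6.8e-06 and 6.2e-06). Cacna2d1 of the same family moved in opposite directions, with 28.8, 29.1, 27.6 and 30.4 TPM with MS-275, 21.7, 19.8, 22.4 and 20.9 TPM with crotonate, and 23.5, 23.4, 25.0 and 24.2 TPM in controls. It rose by 0.26 with MS-275 (adjusted p 0.00059) and fell by 0.17 with crotonate (adjusted p 0.013), and the 3 groups did not overlap. All 3 tested alpha2delta genes rose with MS-275, and with crotonate the family median was 0.27 as deposited and -0.14 with quantile normalization.

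Of 4 beta subunits, 3 rose with each treatment. Cacnb3 had 39.6, 43.2, 37.0 and 41.6 TPM with MS-275, 24.7, 27.9, 26.0 and 28.9 TPM with crotonate, and the control values given above, a rise of 0.95 with MS-275 and 0.38 with crotonate (adjusted p 2.0e-06 and 0.0058). Cacnb1, first known as the beta subunit of skeletal muscle, had 17.0, 14.3, 15.7 and 16.7 TPM with MS-275, 9.66, 10.8, 12.1 and 12 TPM with crotonate, and 5.29, 5.02, 5.55 and 7.22 TPM in controls. Its rise was 1.33 with MS-275 and 0.85 with crotonate (adjusted p 2.4e-07 and 3.4e-05), again with no overlap among the groups. Cacnb2 was called with neither treatment. Of 5 tested gamma-family genes, 4 rose with each treatment, and Cacng4 had 34.2, 36.0, 32.5 and 35.9 TPM with MS-275, 43.1, 39.1, 36.6 and 41.8 TPM with crotonate, and 52.1, 45.6, 38.4 and 42.8 TPM in controls. Cacng4 fell by 0.35 with MS-275 (adjusted p 0.0023), and Cacng7 rose by 0.32 with MS-275 and 0.20 with crotonate (adjusted p 9.0e-05 and 0.0057). The crotonate call of Cacng7 was lost in 2 of 21 alternatives, with median-of-ratios scaling (adjusted p 0.18) and without replicate 1 of every group (adjusted p 0.064).

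Sodium channel genes rose or were not called. Of 5 tested alpha subunits, 4 rose with each treatment, and none fell. Scn3a had 5.30, 8.41, 4.42 and 5.03 TPM with MS-275 and 9.44, 6.97, 7.64 and 6.92 TPM with crotonate, and was at the low control levels given above. No control library reached the lowest treated one. The log2 fold change of Scn3a was 2.06 with MS-275 and 2.45 with crotonate (SE 0.19 in each, adjusted p 8.7e-07 and 7.1e-07). Scn1a, a main sodium channel of inhibitory neurons, had 1.98, 0.808, 0.877 and 1.07 TPM with MS-275, 3.24, 3.43, 4.13 and 2.95 TPM with crotonate, and 0.545, 0.338, 0.265 and 0.436 TPM in controls. Crotonate libraries were the highest and did not overlap the others. Scn1a rose by 1.67 with crotonate (adjusted p 6.0e-06) and by 0.62 with MS-275 (adjusted p 0.0055), and MS-275 was below crotonate by a log2 difference of -1.05 (adjusted p 0.00026). The MS-275 call of Scn1a was lost with quantile normalization (log2 fold change 0.10, adjusted p 0.59). Scn2a, a sodium channel of excitatory neurons that was picked after its values were seen, was called with crotonate alone (0.78, adjusted p 0.0086), at levels of 0.922 to 5.09 TPM over the NSPC libraries. Scn8a, the main channel of mature axon initial segments, was the highest alpha subunit in NSPCs and rose by 0.34 with MS-275 and 0.40 with crotonate (adjusted p 0.011 and 0.0060).

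Scn3b, a beta subunit that modulates sodium channel gating (chromosome 9, 40269216 to 40291618) had 23.3, 21.2, 23.8 and 24.6 TPM with MS-275, 12.9, 14.2, 14 and 16.8 TPM with crotonate, and 6.02, 5.51, 7.08 and 8.03 TPM in controls. The groups did not overlap, with a rise of 1.67 with MS-275 and 1.02 with crotonate (adjusted p 3.3e-08 and 7.9e-06).

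**Figure D3:**
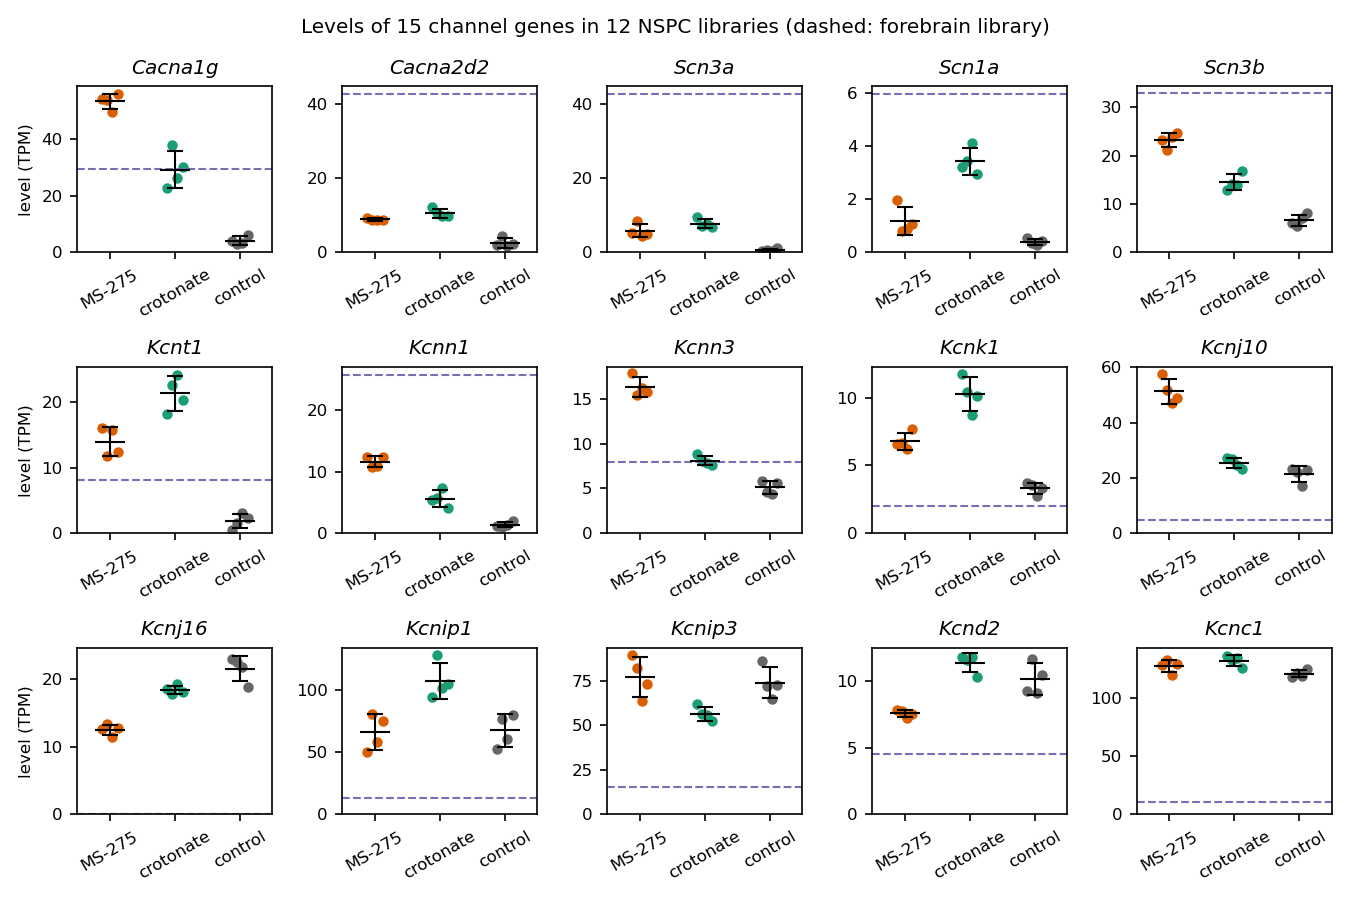
Level in TPM of 15 channel genes in each of 12 NSPC libraries (points), with the mean and SD of 4 libraries per group (black), in the order MS-275, crotonate and control, and the single forebrain library as a dashed line, at 0 for Kcnj16. Cacna1g, Scn3b, Kcnn1 and Kcnn3 are highest with MS-275, Kcnt1, Scn1a and Kcnk1 are highest with crotonate, and Kcnj16 is lowest with MS-275.

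Channels gated by calcium or sodium inside the cell held the largest changes of the potassium channel genes. Of 8 tested, 4 rose with MS-275 and 5 with crotonate, and 0 fell. Kcnt1, a sodium-activated potassium channel (chromosome 2, 25863791 to 25918273), had 16, 11.8, 15.7 and 12.3 TPM with MS-275, 18.2, 22.7, 24.2 and 20.3 TPM with crotonate, and 0.555, 1.63, 3.03 and 2.29 TPM in controls. Every crotonate library lay above every MS-275 library, and all of them above the controls. Its log2 fold change of 3.03 with crotonate (SE 0.23, adjusted p 7.4e-07) was the largest of any member in that comparison, beside 2.45 with MS-275 (SE 0.23, adjusted p 1.3e-06). The difference between the treatments was not called (-0.58, adjusted p 0.059), and was called when the replicate number was a block (adjusted p 0.045). Kcnn1, a small-conductance calcium-activated channel of the afterhyperpolarization (chromosome 8, 70843158 to 70865691), had 12.4, 10.8, 11 and 12.4 TPM with MS-275, 5.40, 5.80, 7.40 and 4.05 TPM with crotonate, and 1.25, 1.01, 1.28 and 1.97 TPM in controls. The groups did not overlap, and the rise was 2.42 with MS-275 and 1.48 with crotonate (adjusted p 3.4e-08 and 8.0e-06). Kcnn3 of the same family had 17.9, 15.4, 16.2 and 15.7 TPM with MS-275, 8.82, 8.09, 7.89 and 7.57 TPM with crotonate, and 5.85, 4.65, 4.42 and 5.56 TPM in controls. It rose by 1.5 with MS-275 and 0.58 with crotonate (adjusted p 1.7e-08 and 0.00017), also with no overlap. The crotonate call of Kcnn3 was lost with quantile normalization (0.20, adjusted p 0.060). Kcnu1, a pH-sensitive channel known from sperm, rose by 1.15 and 1.40 with MS-275 and crotonate (adjusted p 6.8e-05 and 3.0e-05), and its controls stayed under 1 TPM. Kcnmb4, the neuronal beta subunit of the large-conductance calcium-activated channel, was called with neither treatment, at 32.2 to 54.5 TPM over the NSPC libraries, and its MS-275 value passed with the replicate block (-0.23, adjusted p 0.019).

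Voltage-gated potassium channel alpha subunits were the largest family. Of 23 tested, 16 rose and 3 fell with MS-275, and 14 rose and 0 fell with crotonate. Kcna6, a Shaker-type channel, had 25.0, 21.6, 19.5 and 22.2 TPM with MS-275, 16.7, 17.3, 17.3 and 16.8 TPM with crotonate, and 5.97, 7.34, 7.28 and 7.73 TPM in controls. It was added here after its values were seen, for the Kcr peak described below, and rose by 1.51 with MS-275 and 1.17 with crotonate (adjusted p 9.8e-09 and 3.6e-07). Kcnh3, a channel of forebrain neurons, had 3.60, 2.44, 2.72 and 1.83 TPM with MS-275, 1.14, 0.904, 1.22 and 0.892 TPM with crotonate, and 0.172, 0.0226, 0.00 and 0.0547 TPM in controls. It rose by 1.76 with MS-275 and 0.94 with crotonate (adjusted p 6.7e-07 and 0.00033), and the groups did not overlap. Kcna1, a Shaker-type channel of axons, had 2.66, 1.97, 1.54 and 1.84 TPM with MS-275, 4.65, 4.75, 5.08 and 3.99 TPM with crotonate, and 1.31, 0.814, 1.12 and 1.90 TPM in controls. It rose by 1.32 with crotonate (adjusted p 2.4e-05), and its crotonate libraries stood above all others. Its MS-275 value overlapped the controls (0.40, adjusted p 0.039), and that call was lost in 12 of 20 alternatives, among them the replicate block (adjusted p 0.053), and changed sign with quantile normalization (-0.10, adjusted p 0.58).

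The 3 alpha subunits that fell with MS-275 were Kcnd2, Kcnd3 and Kcnq5. Kcnd2, an A-type channel of dendrites, had 7.80, 7.78, 7.24 and 7.51 TPM with MS-275, 11.8, 11.6, 11.8 and 10.3 TPM with crotonate, and 9.29, 11.7, 9.13 and 10.5 TPM in controls. All MS-275 libraries lay under all others, and crotonate overlapped the controls. Kcnd2 fell by 0.37 with MS-275 (adjusted p 0.0013) and was lower with MS-275 than with crotonate (-0.53, adjusted p 0.00019). Kcnd3 had 73.1, 72.5, 70.5 and 70.0 TPM with MS-275 and 83.8, 82.0, 83.1 and 77.8 TPM with crotonate, and fell by 0.24 with MS-275 (adjusted p 5.6e-05). Kcnq5, a channel of the M-current that restrains repetitive firing, had 3.67, 4.10, 4.04 and 3.58 TPM with MS-275, 6.52, 5.35, 6.86 and 5.50 TPM with crotonate, and 5.15, 5.01, 5.31 and 4.92 TPM in controls. It fell by 0.33 with MS-275 (adjusted p 0.0051), and MS-275 and crotonate differed by -0.54 (adjusted p 0.00033). Kcnc1, the highest member in controls, kept a level of 120 to 136 TPM over the treated libraries. Its rise with crotonate was small (0.13, adjusted p 0.015) and was lost in 2 of 21 alternatives, with median-of-ratios scaling (adjusted p 0.76) and without replicate 1 of every group (adjusted p 0.12).

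Of 6 tested auxiliary subunits of voltage-gated potassium channels, 3 rose and 0 fell with MS-275, and 4 rose and 1 fell with crotonate. Kcnip1, a calcium-binding subunit that slows their inactivation, had 49.8, 80.7, 57.6 and 74.7 TPM with MS-275, 94.1, 128, 101 and 105 TPM with crotonate, and 52.3, 76.8, 60.5 and 79.6 TPM in controls. Only crotonate stood apart among these 3 groups, with a rise of 0.67 (adjusted p 0.0051) and a difference of -0.71 between MS-275 and crotonate (adjusted p 0.0037). Kcnip3, which also acts as a calcium-regulated transcriptional repressor, had 89.6, 81.8, 63.6 and 73.3 TPM with MS-275, 61.8, 56.1, 55.7 and 52.3 TPM with crotonate, and 86.0, 71.8, 64.8 and 72.8 TPM in controls. Its crotonate libraries were below all others, a fall of 0.38 (adjusted p 0.0095), and its MS-275 libraries lay around the controls.

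Of 8 tested inward rectifiers, 3 rose and 1 fell with MS-275, and 1 rose and 1 fell with crotonate. The family median with crotonate was 0.15 as deposited and -0.24 with quantile normalization. Kcnj10, the glial channel that clears potassium (chromosome 1, 172341210 to 172374085), had 57.5, 52.0, 47.0 and 49.0 TPM with MS-275, 27.2, 26.8, 24.7 and 23.1 TPM with crotonate, and 23.4, 22.2, 17.1 and 22.9 TPM in controls. It rose by 1.23 with MS-275 (adjusted p 2.3e-07), was not called with crotonate (0.25, adjusted p 0.051), and was higher with MS-275 than with crotonate by 0.98 (adjusted p 5.9e-06). With the replicate number as a block its crotonate value passed as well (adjusted p 0.016). Its partner Kcnj16 (chromosome 11, 110968033 to 111027968) had 12.6, 13.3, 11.4 and 12.7 TPM with MS-275 and 18.6, 17.8, 19.2 and 18.1 TPM with crotonate, below the controls given above. It fell by 0.74 with MS-275 (adjusted p 1.0e-06) and by 0.21 with crotonate (adjusted p 0.021), and the crotonate call was lost in 4 of 21 alternatives, each of which leaves out libraries (adjusted p 0.056 to 0.11). Kcnj9, a subunit of G protein-gated rectifiers, had 2.10, 2.14, 2.01 and 2.79 TPM with MS-275, 0.699, 0.381, 0.614 and 0.460 TPM with crotonate, and 0.968, 1.08, 0.614 and 0.795 TPM in controls. It was the member with the largest difference in favour of MS-275 over crotonate (1.08, adjusted p 4.3e-05), and it rose by 0.81 over controls (adjusted p 0.00019), a call lost with quantile normalization (0.31, adjusted p 0.058). Kcnj11, the pore of ATP-sensitive channels, was called with neither treatment, and replicate 1 stood above the other libraries of its group in all 3 groups, at 7.38 TPM with MS-275, 4.56 TPM with crotonate and 3.66 TPM in controls. With the replicate number as a block both of its values passed (0.93 with MS-275 and 0.86 with crotonate, adjusted p 0.0012 and 0.0032). Of the 110 members, 14 had replicate 1 highest in all 3 groups (12.7%, beside 3.75% of all genes tested). Without replicate 1 of every group 52 members were higher and 6 lower with MS-275, and 45 were higher and 2 lower with crotonate. These last counts have no share of all genes beside them.

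Of 7 tested K2P leak channels, 4 rose with each treatment. Kcnk1 (chromosome 8, 125993655 to 126030685) had 6.60, 6.68, 6.22 and 7.68 TPM with MS-275, 11.8, 10.4, 8.73 and 10.1 TPM with crotonate, and 3.68, 3.57, 2.74 and 3.31 TPM in controls. The groups did not overlap, with crotonate highest, and the rise was 0.85 with MS-275 and 1.38 with crotonate (adjusted p 1.1e-05 and 5.8e-07). Kcnk4, a mechanically gated leak channel, rose by 1.55 with MS-275 and 1.02 with crotonate (adjusted p 8.2e-06 and 0.00056), and its controls had 0.459 to 1.51 TPM. Kcnk2, its mechanically gated relative, was called with neither treatment, and was lower with MS-275 than with crotonate (-0.63, adjusted p 0.018), a call lost in 2 of 21 alternatives, without MS-275 replicate 2 (adjusted p 0.051) or crotonate replicate 2 (adjusted p 0.052). Hcn2, a channel of the hyperpolarization-activated pacemaker current, had 7.71, 5.84, 6.28 and 6.02 TPM with MS-275, 5.60, 5.26, 4.99 and 5.01 TPM with crotonate, and 2.67, 2.01, 1.81 and 2.42 TPM in controls. It rose by 1.21 with MS-275 and 0.95 with crotonate (adjusted p 7.3e-07 and 1.7e-05) with no overlap between treated and control libraries. Hcn3 was called with neither, so 1 of 2 tested HCN genes rose with each treatment.

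Between the treatments, 24 members were higher and 16 lower with MS-275 than with crotonate (28.9% and 19.3%, beside 19.3% and 27.4% of all genes tested). The median difference of the members was -0.00, beside -0.04 for all genes. Thus the members moved to both sides, with Kcnj9, Kcnj10, Kcnn1, Kcnn3 and Cacna1g in favour of MS-275 and Scn1a, Kcna1, Kcnip1, Kcnk2 and Kcnq5 in favour of crotonate at the ends of the range that the naming rule takes. Kcnmb4os2, a noncoding transcript named as lying opposite to Kcnmb4, fell with MS-275 (-0.59, adjusted p 0.016), a call lost without control 1 (-0.45, adjusted p 0.051) and without replicate 1 of every group (-0.46, adjusted p 0.079). Whether strand was used in quantification is not given in the sources used here, so reads of Kcnmb4os2, Kcnd3os and Kcnab3os and of the channel genes beside them cannot be told apart.

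The 27 untested members were at low levels in NSPCs, and the 4 described here were picked after their values were seen. Of these, 11 reached 1 TPM in forebrain alone, 8 in NSPCs alone and 8 in both. Kcnh4 had 10.9 TPM in forebrain and at most 0.854 TPM in any NSPC library, Hcn4, a pacemaker channel of heart and embryonic brain, had 7.80 TPM in forebrain and at most 0.682 TPM in NSPCs, and Cacng2, the AMPA receptor subunit stargazin, had 6.31 and at most 0.248 TPM. Scn7a, an atypical sodium-sensing channel, was the reverse, at 0.0144 TPM in forebrain and 0.182 to 0.292 TPM with MS-275, 0.688 to 1.09 TPM with crotonate and 0.113 to 0.169 TPM in controls.

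Genes that work with these channels but have other names moved upward as well. The shares to set beside the counts in this paragraph are 37.4% higher and 27.6% lower of all genes tested with MS-275. With crotonate these shares are 32.3% and 15.9%. Of 25 tested partner genes, 16 rose and 2 fell with MS-275 and 19 rose and 1 fell with crotonate, with medians of 0.45 and 0.54. Stac2, which binds L-type calcium channels, averaged 27.5 ± 1.17 TPM with MS-275, 19.9 ± 0.953 TPM with crotonate and 3.98 ± 0.818 TPM in controls (SD, n = 4 each), rises of 2.53 with MS-275 and 2.08 with crotonate (limma adjusted p 6.3e-10 and 1.3e-08). Cntnap2, which clusters Shaker-type channels on axons, averaged 3.22 ± 0.458 TPM with MS-275, 1.30 ± 0.294 TPM with crotonate and 0.156 ± 0.124 TPM in controls, and rose by 1.87 with MS-275 (limma adjusted p 1.6e-07). Ank2, an ankyrin that anchors membrane proteins, averaged 114 ± 5.63 TPM with MS-275, 123 ± 2.98 TPM with crotonate and 172 ± 12.6 TPM in controls, and fell by 0.59 with MS-275 and 0.47 with crotonate. Of 15 tested pumps and exchangers that set the ion gradients, 10 rose and 2 fell with MS-275 and 9 rose and 2 fell with crotonate. Atp2b4, a calcium pump of the plasma membrane, averaged 53.1 ± 5.94 TPM with MS-275, 32.9 ± 2.19 TPM with crotonate and 11.9 ± 1.16 TPM in controls, rises of 2.07 with MS-275 and 1.40 with crotonate (limma adjusted p 1.3e-09 and 1.3e-07). Of 7 genes for REST, the repressor that silences neuronal genes outside neurons, and its corepressors, 1 rose and 2 fell with MS-275 and 4 rose with crotonate. Rest itself averaged 11.7 ± 0.629 TPM with MS-275, 13.9 ± 0.431 TPM with crotonate and 11.3 ± 0.448 TPM in controls, a rise of 0.28 with crotonate (limma adjusted p 0.0015).

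In forebrain explants the channel genes did not share an upward shift with crotonate. In the authors' deposited table, 92 members had an adjusted p, and 10 were higher and 6 lower with crotonate at 0.05 (10.9% and 6.52%, beside 10.5% and 9.75% of the 14507 genes with an adjusted p). At 0.01, 7 were higher and 3 lower (beside 7.01% and 6.75%). The direction of that table, crotonate over control, is given only by its deposited name. Among the members called in the authors' deposited table, the highest log2 fold change was that of Kcnn3, at 0.70 (SE 0.07, adjusted p 1.5e-21), and Kcng1, a silent subunit that modifies other voltage-gated channels, had 0.57 (SE 0.10, adjusted p 1.9e-07). Kcnq3, a subunit of M-current channels, had 0.36 (SE 0.04, adjusted p 2.1e-21) in the authors' deposited table, and 0.03 with crotonate in NSPCs, where it was not called. Kcnj11 and Kcnj3, the second a G protein-gated rectifier, had 0.39 and 0.25 in the authors' deposited table (adjusted p 0.0021 and 0.040).

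Of the 10 members called higher in explants, 9 were tested in NSPCs, where 6 were higher and 1 lower with crotonate (beside 32.7% and 17.4% of 1447 such genes). These 6 are 12.2% of the 49 members higher in NSPCs. They were Kcnn3, Kcng1, Cacnb1, Cacng7, Cacnb4 and Scn3b, of which the last 4 had 0.17, 0.19, 0.17 and 0.10 in the authors' deposited table (adjusted p 0.0020, 4.3e-06, 0.032 and 0.019).

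Other members went in unlike directions in explants and NSPCs, a difference that was not tested since the tables were made separately. Of the 6 called lower in explants, 5 were tested in NSPCs, where 3 were higher and 0 lower with crotonate (beside 25% and 32.3% of 1282 such genes). Among the members called in the authors' deposited table, Cacna2d2 had the lowest log2 fold change, -0.47 (SE 0.05, adjusted p 1.5e-19), and rose by 1.78 in NSPCs. Kcnip3 had 0.45 (SE 0.11, adjusted p 0.00066) in the authors' deposited table and fell by 0.38 in NSPCs. Cacna1a and Kcnh2, the second a delayed rectifier of heart and brain, had -0.16 and -0.25 in the authors' deposited table (adjusted p 0.029 and 0.025) and rose by 1.04 and 0.56 in NSPCs. The NSPC call of Kcnh2 was lost with quantile normalization (0.31, adjusted p 0.089). Cacnb2 and Kcnh4 had -0.45 and -0.39 in the authors' deposited table (adjusted p 0.00099 and 7.4e-05), and with crotonate in NSPCs Cacnb2 was not called and Kcnh4 not tested. Some members with large NSPC changes were not called in explants, as Cacna1g with -0.02, Scn3a with -0.04 and Kcnt1 with -0.16 in the authors' deposited table (adjusted p 0.79, 0.45 and 0.16). The explants are tissue of another strain, and the contribution of cell types other than NSPCs was not tested. In the authors' deposited table, of 12 neuron markers 5 were higher and 4 lower, and of 9 stem-cell and radial glia markers 1 was higher and 6 lower.

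**Figure D4:**
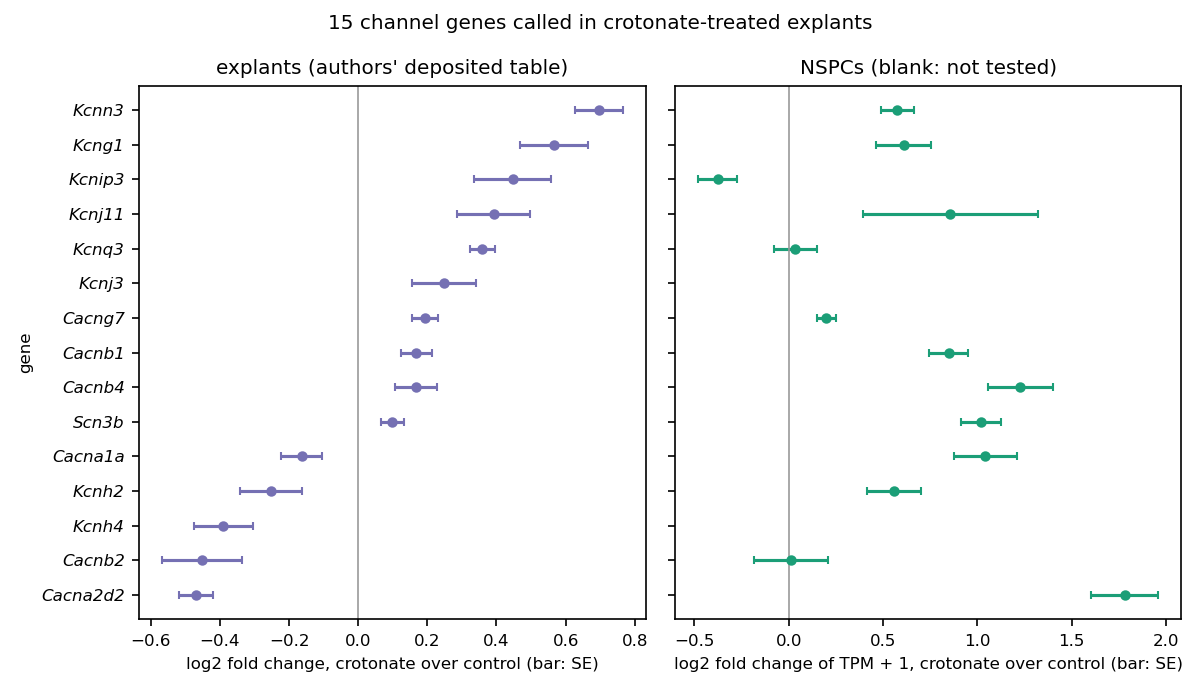
Log2 fold change with its SE, crotonate over control, of 15 of the channel genes with an adjusted p under 0.05 in the authors' deposited explant table (left) and of the same genes in NSPCs on the log2(TPM + 1) scale (right, blank where not tested). Cacna2d2 is at -0.47 on the left and 1.78 on the right, and Kcnip3 at 0.45 and -0.38.

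Chromatin peaks near channel genes were listed less often than near other genes in controls, and near more members with crotonate than in controls. A RefSeq gene start was known for 80 members, and a peak was counted when it overlapped 1 kb on either side of a start. Kcr peaks lay near 19 of the 80 with MS-275, 49 with crotonate and 30 in controls (23.8%, 61.2% and 37.5%, beside 17.0%, 66.5% and 57.0% of the 12142 genes that reached 1 TPM in a column and have a start). Kac peaks lay near 24 with MS-275, 42 with crotonate and 29 in controls (30%, 52.5% and 36.2%, beside 18.6%, 61.9% and 64.5%). The whole lists held 5845, 23301 and 17669 Kcr peaks and 7555, 21616 and 23427 Kac peaks in the same order. With 1 library per antibody and treatment, no values beside positions and an unknown calling threshold, the presence of a peak in these lists has no replicate check, and the part of library depth was not tested.

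Kcr peaks that were listed with crotonate and not in controls lay near 19 of the 80 members, beside 15.5% of all genes, and the opposite change was seen for 0 members, beside 5.97% of all genes. The 19 were Cacna1i, Cacna2d2, Cacnb4, Kcna6, Kcna7, Kcnc2, Kcne1l, Kcnh2, Kcnh5, Kcnh8, Kcnip2, Kcnj4, Kcnj5, Kcnk1, Kcnk4, Kcnma1, Kcnn1, Kcnt2 and Scn2b. Of these, 12 were tested in NSPC RNA, and all 12 rose with crotonate and 0 fell, beside 52.3% and 8.71% of the 1733 tested genes whose Kcr peak was likewise listed with crotonate alone. Of the 30 members with a Kcr peak in both lists 10 rose and 3 fell (beside 26.9% and 21.6% of 6046 genes), and of the 15 tested members with a peak in neither list 10 rose and 0 fell (beside 40.7% and 10.8% of 2311 genes). Members with no Kcr peak near a start were thus also often higher, among them Scn1a.

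For Kac, 14 members had a peak listed with crotonate alone, beside 8.63% of all genes, and 8 of the 10 tested among them rose and 0 fell (beside 63.1% and 5.67% of 934 genes). Of the 28 tested members with a Kac peak in both lists 10 rose and 3 fell (beside 27.8% and 20.8%), and of the 18 with a peak in neither list 13 rose and 0 fell (beside 43.2% and 9.92%). With MS-275, Kcr peaks were listed with the treatment alone near Cacna1e, Cacna2d2 and Kcnh5, and Kac peaks near Cacng5, Kcnf1, Kcnh2, Kcnh5, Kcnj4 and Kcnn1 (beside 2.68% and 1.95% of all genes). The 2 tested members of the Kcr group rose with MS-275 (beside 72.0% higher and 9.0% lower of such genes), and 4 of the 5 tested members of the Kac group rose and 0 fell (beside 69.4% and 3.83%). Kcr peaks of controls that were not listed with MS-275 lay near 14 members, beside 42.7% of all genes. Of those 14, 7 rose and 2 fell with MS-275, beside 29.5% and 38.8% of such genes. Of the 16 tested members with a Kcr peak in both lists 5 rose and 4 fell with MS-275 (beside 35.4% and 33.8%), and of the 25 with a Kcr peak in neither list 20 rose and 0 fell (beside 50.6% and 17.7%). For Kac the counts with MS-275 were 10 higher and 4 lower of 18 with a peak in both lists (beside 36.1% and 33.6%), 3 higher and 2 lower of 11 with a peak in controls alone (beside 30.5% and 37.2%), and 17 higher and 0 lower of 23 with a peak in neither list (beside 54.9% and 15.1%). For 29 members without a listed start the windows were placed at both gene ends, and Cacna1g, Kcnt1, Kcnh3 and Cacna1a were among 9 with a Kcr peak listed with crotonate and not in controls (beside 13.6% of 3934 genes without a listed start, with windows placed likewise).

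The 250 bases before the start are shown for 3 members that rose and had a Kcr and a Kac peak listed with crotonate and not in controls, Cacna2d2, Kcnn1 and Cacnb4, a beta subunit of neuronal calcium channels, and for Kcna2, which had a peak of both marks in all 3 NSPC conditions. They were picked after their values were seen, among members whose Kcr peak with crotonate overlaps this stretch. CpG dinucleotides, the sites of DNA methylation, are in capitals. Positions are on GRCm38.p6 and sequences from RefSeq, given on the strand of the gene. The stretches lie at chr9:107399630-107399879 on the plus strand for Cacna2d2, chr8:70863259-70863508 on the minus strand for Kcnn1, chr2:52675860-52676109 on the minus strand for Cacnb4 and chr3:107101317-107101566 on the plus strand for Kcna2.
Cacna2d2: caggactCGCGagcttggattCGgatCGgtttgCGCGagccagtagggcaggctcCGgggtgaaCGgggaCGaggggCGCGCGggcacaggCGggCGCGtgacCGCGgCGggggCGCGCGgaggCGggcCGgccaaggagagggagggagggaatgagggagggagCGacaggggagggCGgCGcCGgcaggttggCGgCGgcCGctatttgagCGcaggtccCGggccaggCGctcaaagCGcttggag
Kcnn1: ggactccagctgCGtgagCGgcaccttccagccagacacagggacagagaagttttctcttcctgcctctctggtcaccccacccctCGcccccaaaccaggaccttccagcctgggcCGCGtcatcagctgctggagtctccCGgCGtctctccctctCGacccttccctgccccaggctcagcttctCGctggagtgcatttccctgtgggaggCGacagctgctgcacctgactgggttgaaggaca
Cacnb4: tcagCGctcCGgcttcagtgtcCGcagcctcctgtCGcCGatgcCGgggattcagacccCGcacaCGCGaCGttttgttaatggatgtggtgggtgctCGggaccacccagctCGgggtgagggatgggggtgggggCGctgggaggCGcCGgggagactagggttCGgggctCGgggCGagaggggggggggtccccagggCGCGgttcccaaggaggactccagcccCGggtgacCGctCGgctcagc
Kcna2: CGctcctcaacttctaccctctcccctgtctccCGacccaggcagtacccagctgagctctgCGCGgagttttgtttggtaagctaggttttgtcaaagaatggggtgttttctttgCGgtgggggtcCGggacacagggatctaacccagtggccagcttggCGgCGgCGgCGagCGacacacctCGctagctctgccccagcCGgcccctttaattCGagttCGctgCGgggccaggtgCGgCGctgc
These stretches hold 34, 10, 23 and 18 CpGs in that order, beside a median of 8.5 over 112 starts of the members and 15 over 15544 starts of all genes. The Kcr peaks with crotonate cover 66, 145, 162 and all 250 of the bases, and for Kcna2 the control Kcr peak covers all 250 as well. In the Cacna2d2 stretch no peak of a control list is present, and its Kcr peak with crotonate from 107399463 to 107399695 ends before the start, while another from 107399920 to 107400442 begins after it. For Kcnn1 the Kcr peak from 70862847 to 70863403 spans the start, and the forebrain H3K9cr peak from 70862737 to 70865507 covers the whole stretch.

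Short motifs were counted near the starts. In the 300 bases around the start, from 250 before to 50 after and on both strands, GGGCGG, a GC box, was found for 51 of 80 members (63.8%, beside 66.7% of all genes). GGACAG, a part of the REST site, was found for 26 (32.5%, beside 26.7%), and TTCAGCACC, the other part, for 0 (beside 0.502%). TGACGTCA, the cyclic AMP response element, was found for 0 members (beside 3.43%). These counts describe letters in this window only.

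**Figure D5:**
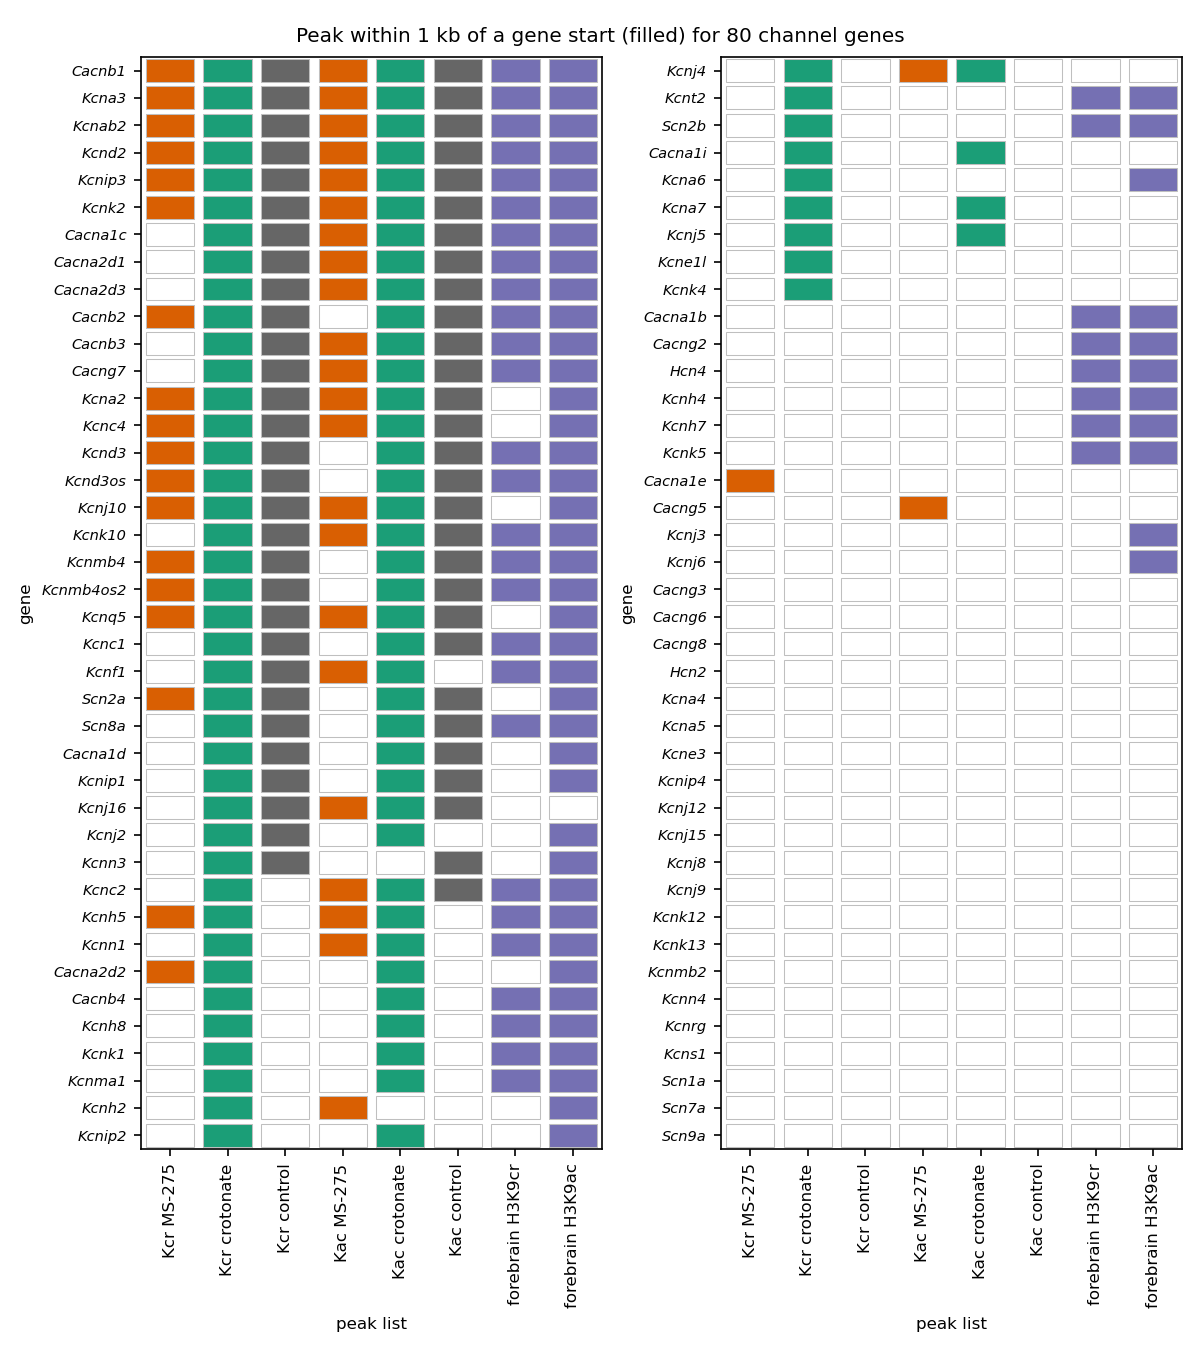
Peak within 1 kb of a gene start (filled box) for the 80 channel genes with a known start, in 6 NSPC lists coloured by treatment and 2 forebrain lists. Genes with a Kcr peak in controls come first (30), then the 19 with a Kcr peak with crotonate and not in controls, then the 31 with neither.

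In the forebrain, H3K9cr peaks lay near 35 members and H3K9ac peaks near 50 (43.8% and 62.5%, beside 71.6% and 82.0% of all genes). Members with a forebrain peak of both marks and no Kcr or Kac peak in any NSPC list were Cacna1b, Cacng2, Hcn4, Kcnh4, Kcnh7 and Kcnk5. Of these, Hcn4, Kcnh4 and Cacng2 were under 1 TPM in every NSPC library, as given above, and are members through the forebrain alone. Cacna1b, Kcnk5 and Kcnh7 averaged 5.24, 3.64 and 0.404 TPM in the NSPC controls. Cacna1b and Kcnh7 were called higher with both treatments, and Kcnk5 with neither. Kcnj16, listed at 0 in forebrain RNA, had no peak in either forebrain list and had Kcr and Kac peaks in the NSPC controls.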

How the data were processed

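RNA levels were read from the table of TPM deposited by the authors, with 12 NSPC libraries and 1 forebrain library. The submitters' processing notes name Salmon 1.0.0, DESeq2 1.26.0, Bowtie2 2.3.5.1, MACS2 2.2.5 and the build GRCm38. The forebrain explant comparison was taken from the authors' deposited table of log2 fold changes, their standard errors, a mean signal per gene, a score (fold over error) and an adjusted p-value. The authors' deposited NSPC peak lists hold positions alone, so their calling threshold is unknown, while the forebrain peak lists give, per the file headers, a score, a fold enrichment ratio and −log10 p and q values per peak. Whether strand was used in quantification is not given in the sources used here. IgG, input and bisulfite libraries were not used here.

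NSPC groups were compared with limma 3.58.1 in R 4.3.3 on log2(TPM + 1), for 14857 genes at 1 TPM or more in at least 4 of 12 libraries. All 3 groups entered 1 fit with a trend in the variance, 2-sided tests and Benjamini-Hochberg adjustment over all genes at 0.05. TPM keeps no depth, so no counting error is given. On simulated data of 14857 genes for crotonate against control, 70%, 88%, 96% and 100% of 50 genes each were recovered at 1.5, 2, 4 and 8-fold, with 17 false calls. The changed genes had a mean log2(TPM + 1) above 1 in controls, and folds were applied to TPM + 1. Noise was independent between libraries, and all other genes were left unchanged. These rates therefore do not cover genes at lower levels, libraries that deviate together or changes in a large share of genes. Peaks were compared by an overlap of at least 1 base with 1 kb on either side of a gene start, in Python 3.11.15 with pandas 2.3.3 and NumPy 2.4.6. Starts and sequences come from RefSeq GRCm38.p6, matched by symbol for 80 of 110 members, while 29 others were given windows at both gene ends and Kcnab3os was left out. Figures were drawn with matplotlib 3.10.9.

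Same-numbered libraries of different NSPC groups deviated together, with correlations of 0.119 to 0.241 in all 12 pairs. In the 36 pairs of unlike number the correlations were -0.197 to 0.0993. The replicate numbers were therefore entered as a block in an alternative fit. The main fit had no such block, so its counts and adjusted p-values do not use the pairing. Nothing else in the labels says what a number stands for.

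The members named are, per treatment and direction, the 8 with the largest called change whose groups do not overlap and whose higher group averages at least 2 TPM, and 5 per direction between the treatments. Members called in opposite directions, the highest of each family in NSPCs and in forebrain, and the 8 largest called explant changes per direction with a mean of at least 50 were added, and members named outside this rule were chosen after their values were seen. A few genes that the rule takes are not reported here. Members and gene lists were chosen with earlier results of these data known. Alternatives covered the pseudocount, the filter on low values, scaling, the variance trend, the groups in the fit, the replicate block and leaving out libraries.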

Additional observations from a re-analysis of the deposited data

Results flagged for a closer look

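Of 132 groups of 4 libraries examined among the named members, 9 held a library whose gap to the nearest other exceeded Dixon's 95% critical value, and chance flags about 1 group in 20. Cacna1a had 23.8 TPM in crotonate replicate 2 against 18.6 to 18.8 TPM in the other crotonate libraries, and 14.6 TPM in control replicate 2 against 7.64 to 8.01 TPM in the other controls. Kcnj11 had 7.38 TPM in MS-275 replicate 1 against 1.46 to 1.94 TPM in the others with MS-275, and 3.66 TPM in control replicate 1 against 0.262 to 0.517 TPM in the other controls. Cacnb2 had 5.59 TPM in crotonate replicate 1 against 2.62 to 3.06 TPM in the other crotonate libraries. Kcnd2 had 10.3 TPM in crotonate replicate 4 against 11.6 to 11.8 TPM, and Kcnh2 had 16.9 TPM there against 12.7 to 13.2 TPM. Kcnj9 had 2.79 TPM in MS-275 replicate 4 against 2.01 to 2.14 TPM in the others with MS-275. Kcnmb4os2 had 7.71 TPM in control replicate 1 against 4.76 to 5.11 TPM in the other controls.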

How the results depend on the processing

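Of 85 called values of the named members, 69 kept their call under every alternative run and 16 lost it under at least 1. With quantile normalization 2 changed sign and were not called, Kcna1 with MS-275 (-0.10, adjusted p 0.58) and Kcnq3 with MS-275 (-0.033, adjusted p 0.81). A filter of 5 TPM left 47 members tested, of which 32 were higher with MS-275 and 31 with crotonate. Members lower with crotonate numbered 7 with median-of-ratios scaling and 12 with quantile normalization (beside 26.9% and 24.8% of all genes). Those lower with MS-275 numbered 16 with quantile normalization (beside 34.1%). The cause of these shifts was not tested beyond the scaling itself. Leaving out 1 library at a time gave 51 to 55 higher and 6 to 8 lower with MS-275, 47 to 51 and 2 to 4 with crotonate, and 21 to 26 and 13 to 17 for MS-275 over crotonate. At a threshold of 0.01, 7 members were higher and 3 lower in the authors' deposited table of explants (beside 7.01% and 6.75% of all genes). Counting only gaps of at least 2-fold, the forebrain was above all controls for 40 members and below for 14. With forebrain peaks above the median −log10 q alone, H3K9cr peaks lay near 11 members and H3K9ac near 13. TPM alone does not show which low levels rest on few reads.

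With the replicate block, 56 members were higher and 9 lower with MS-275, 52 and 3 with crotonate, and 26 and 21 for MS-275 over crotonate. Kcna1 with MS-275 lost its call under the block and 15 values gained one, Kcnj11 with both treatments and Kcnj10 with crotonate among them. The members left out for staying under 1 TPM in every control library and the removal of replicate 1 of every group were alternatives chosen after seeing the data. Without those members 23 were higher and 15 lower with MS-275 than with crotonate, and without replicate 1 of every group 21 and 14. Counts in this section with no share of all genes beside them cannot be set against that background.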
